A study of Mus musculus with 6 samples.

Results

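Glucose metabolism was examined through 45 genes that carry glucose from the cell surface to lactate, into the citrate cycle or into the pentose phosphate pathway. The genes were chosen by name, as enzymes, transporters and kinases of these pathways, and were matched by their GENCODE M21 symbols to the Ensembl gene identifiers of the expression files, which list 54886 genes. All 45 had a mean of at least 1 FPKM (fragments per kilobase of gene, scaled to the depth of the library) over the libraries and so were among the 11884 genes that were tested. The 45 symbols match 46 identifiers, because Aldoa is given to both the aldolase gene on chromosome 7, which was used, and a short neighbouring gene with 0.675 to 2.52 FPKM, which was not.

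RNA was sequenced from GC-2spd cells, an established mouse cell line derived from spermatocytes of BALB/c background. The untreated group was 3 libraries of cells kept in normal medium, and the PM2.5 group was 3 libraries of cells exposed to fine particulate matter at 100 μg/mL for 48 h. The particles were an urban reference dust suspended in phosphate-buffered saline, and the study's methods for another assay on these cells also add that buffer to the control medium. All 6 libraries came from the same line, and the labels do not say whether the replicates were separate cultures. The study's general statement that quantitative data come from repeated experiments does not name the sequencing, so that the p-values below measure only the spread between these libraries.

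Glycolysis splits glucose into pyruvate in a preparatory phase that spends ATP and a payoff phase that returns it. Pyruvate is then either reduced to lactate and exported, or enters mitochondria, where the pyruvate dehydrogenase complex turns it into acetyl-CoA for the citrate cycle. The pentose phosphate pathway branches off at glucose 6-phosphate and yields NADPH, which maintains reduced glutathione, and ribose for nucleotides. Maturing male germ cells are known for replacing several of these enzymes with isozymes of their own.

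The libraries held between 16209352 and 18003201 reads in genes, as recovered from FPKM and gene length. Untreated replicate 2 stood apart from the other 5 libraries, with a Pearson r of 0.732 to 0.779 across genes on the log2(FPKM + 1) scale. Mitochondrial genes took 14.5% of its reads, against 1.65% to 1.95% in the other libraries. PM2.5 replicate 3 had an r of 0.95 and 0.958 with the other PM2.5 libraries, lower than its r of 0.972 with each of untreated replicates 1 and 3. The fit was therefore made with all 6 libraries and again without untreated replicate 2, and for several genes that PM2.5 replicate 3 moved the result without it is given too.

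The labelled cell type was checked against its markers. None of 12 meiotic spermatocyte markers reached the mean of 1 FPKM, and Spo11, Dazl, Mael and Piwil1 were listed at 0 in every library. Their summed level was 0.538 to 2.6 FPKM untreated and 0.0537 to 0.636 FPKM after PM2.5, with Sycp3 in untreated replicate 2 (2.56 FPKM) as the highest value. The germ cell isozymes were likewise absent or nearly so, since Pgk2, Pdha2 and G6pd2 were listed at 0 throughout, Ldhc did not pass 0.0976 FPKM and Gapdhs did not pass 0.348 FPKM. Ldhal6b was listed at 0 too, but all of its sequence occurs in another annotated gene, Gm29050, so that its reads may not have been countable. Of 6 markers of fibroblasts or peritubular cells 4 were tested, namely Col1a1 (193 to 452 FPKM), Col1a2 (115 to 202 FPKM), Vim (254 to 698 FPKM) and Acta2 (41.6 to 88.3 FPKM), whereas Myh11 did not pass 0.142 FPKM and Tagln did not pass 0.502 FPKM. The 6 summed to 910 to 1437 FPKM untreated and 711 to 920 FPKM after PM2.5, and their part in the results was not tested. Of 5 Sertoli cell markers Gata4 and Clu were tested, and of 5 Leydig cell markers Star was. Of 5 leukocyte markers only Cd68 was tested, at 15.5 FPKM in untreated replicate 2 and 0.75 to 1.8 FPKM in the other libraries, and Ptprc and Adgre1 were listed at 0. The pathway transcripts described below are those of the somatic isozymes. In bulk RNA, fewer cells of a type and less RNA per cell cannot be told apart.

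Over all 45 genes no difference between PM2.5 and untreated libraries passed the test. With 6 libraries, limma called 0 of 45 at an adjusted p under 0.05, against 0.0926% of all genes tested. At an unadjusted p under 0.05 it passed 2 of 45 (4.44%), against 3.8% of all genes. These were Hk2 as higher, against 1.92% of all genes, and Aldoc as lower, against 1.88%. The voom form of limma on the recovered reads also called 0 and passed 2 at the unadjusted level. Without untreated replicate 2, limma again called 0 of 45, against 0.993% of all genes, with Hk2 at the lowest adjusted p (0.0779). Unadjusted, 9 of 45 (20%) passed, against 15.9% of all genes, and voom called 0 and passed 10. Of the 9, Hk2, G6pdx and Pgd were higher after PM2.5 (8.23% of all genes), and Slc2a1, Pfkl, Aldoc, Ldha, Pdk1 and Pdk4 were lower (7.63% of all genes).

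The direction of the pathways as a whole depended on the single untreated library. With 6 libraries the median log2 difference of the 45 genes (PM2.5 minus untreated, on the log2(FPKM + 1) scale) was 0.16, beside 0.02 for all genes tested, and 32 of 45 were above 0, against 51.9% of all genes. Without untreated replicate 2 the median was -0.06, beside -0.01 for all genes, and 19 of 45 were above 0, against 48% of all genes. Untreated replicate 2 had the lowest value of the 6 libraries in 29 of the 45 genes, against 43.6% of all genes, and the highest in 11, against 39.3% of all genes. The 45 genes summed to 2762 FPKM in that library and to 3475 to 3950 FPKM in the others.

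The groups did not overlap for 11 of the 45 genes (24.4%) with 6 libraries, against 15.2% of all genes tested. PM2.5 libraries were the higher ones for 9 of them, namely Hk2, Pfkfb3, Pdha1, Dlat, Cs, Ogdh, Dlst, Mdh2 and Taldo1, against 8.35% of all genes. They were the lower ones for Slc2a1 and Aldoc, against 6.85% of all genes. Without untreated replicate 2 there were 23 such genes (51.1%), against 37.3% of all genes. PM2.5 was higher for 12, against 17.7% of all genes, and lower for 11, against 19.6%.

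When PM2.5 replicate 3 was left out as well, so that 2 libraries stood on each side, limma called 25 of 45 genes (55.6%), against 47.1% of all genes tested. The libraries left out were the least like their groups, and those kept correlated at 0.992 (untreated) and 0.991 (PM2.5). This narrows the spread that limma measures, so the adjusted p-values of that comparison are not support for a difference. In that comparison 11 genes were higher after PM2.5 (Hk1, Hk2, Gpi1, Pkm, Slc16a3, Pdha1, Mdh2, G6pdx, Pgd, Taldo1 and Tkt), against 23.5% of all genes. The 14 lower genes were Slc2a1, Pfkl, Aldoc, Pgk1, Ldha, Pdhb, Dld, Pdk1, Pdk3, Pdk4, Idh1, Idh3g, Sucla2 and Mdh1, against 23.6% of all genes. PM2.5 replicate 3 lay more than 0.3 on the log2 scale from the mean of the other PM2.5 libraries in 15 of the 45 genes, against 47.8% of all genes.

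**Figure D1:**
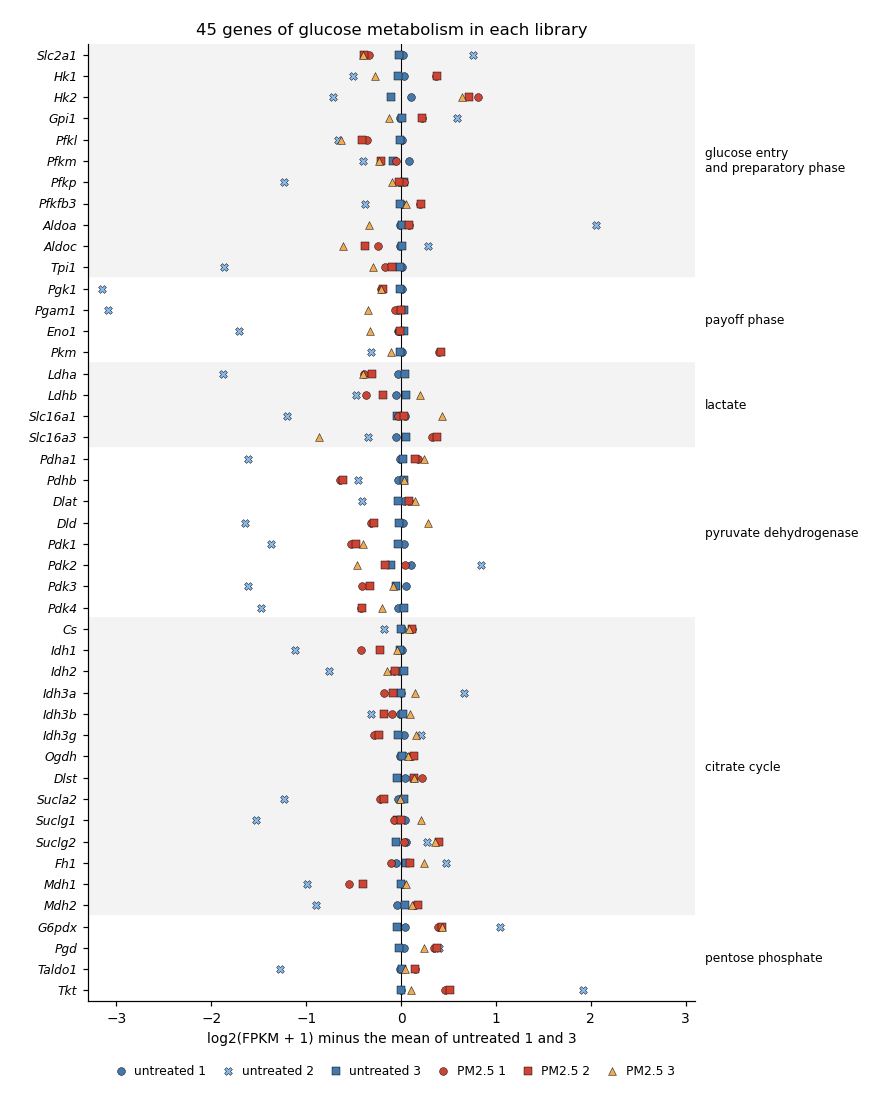
Level of each of the 45 genes in each library as log2(FPKM + 1) minus the mean of untreated replicates 1 and 3, with shading by pathway step and 1 symbol per library. Untreated replicate 2 (crosses) lies farthest from 0 for most genes, on the left for 29 of the 45 as the lowest library, while untreated replicates 1 and 3 lie close together.

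**Figure D2:**
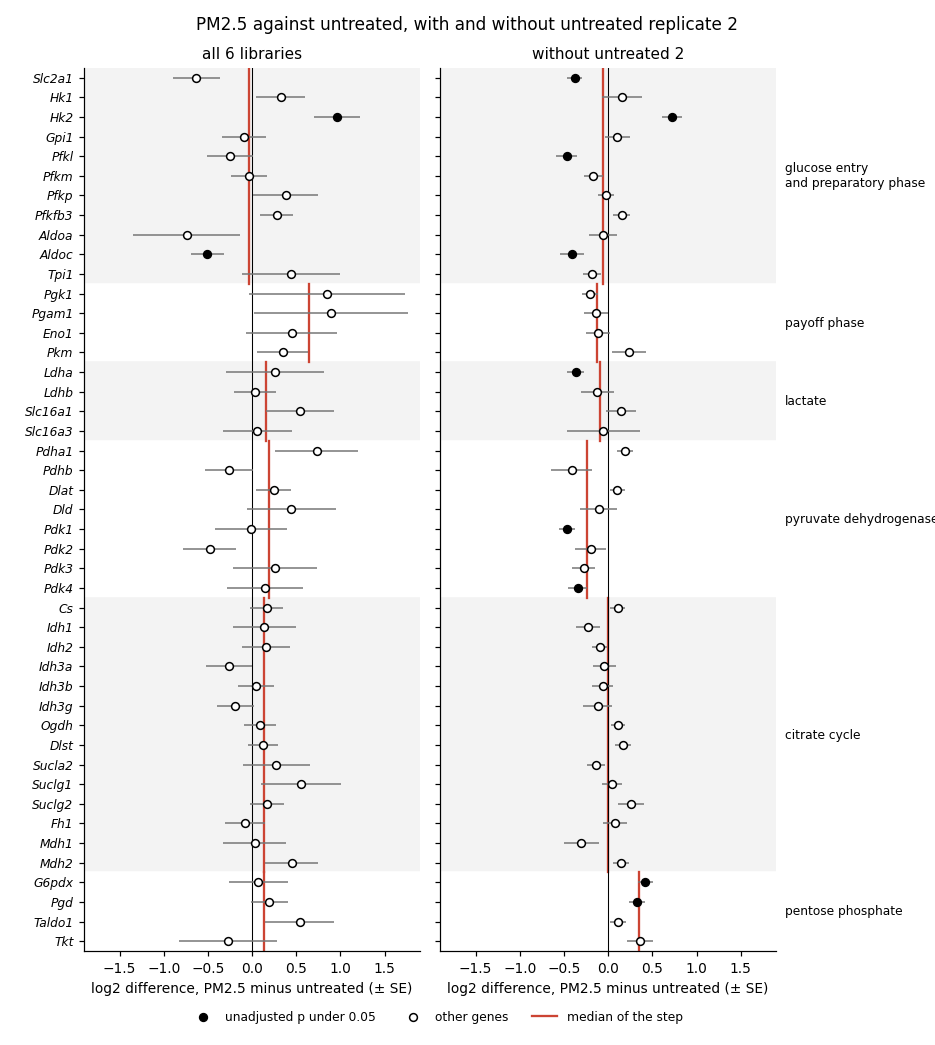
Log2 difference between PM2.5 and untreated libraries for the 45 genes, with bars of 1 SE from limma, for all 6 libraries (left) and without untreated replicate 2 (right). Filled points had an unadjusted p under 0.05, which were 2 genes on the left and 9 on the right, and the red line is the median of each step, which for the payoff phase is 0.65 on the left and -0.13 on the right.

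The steps differed from each other in their medians. With 6 libraries the median log2 difference was -0.03 for glucose entry and the preparatory phase, 0.65 for the payoff phase, 0.16 for lactate, 0.20 for pyruvate dehydrogenase, 0.13 for the citrate cycle and 0.13 for the pentose phosphate pathway. The sign of the preparatory value was not firm, since scaling to total reads gave 0.09. Without untreated replicate 2 the same medians were -0.06, -0.13, -0.09, -0.24, 0.00121 and 0.34. Only in the pentose phosphate step (4 genes) were all listed members higher in every PM2.5 library than in both remaining untreated libraries. Of all genes tested, 17.7% were higher in this way. Without untreated replicate 2 the pyruvate dehydrogenase group had the lowest median of the 6 steps, but with 6 libraries its median was above 0. Its 4 kinases, which switch the complex off, were all below 0 without that library, whereas the subunits of the complex had both signs. With 6 libraries Pdk3 and Pdk4 were above 0.

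The promoters of genes on which these values turn are shown with the core letters of binding sites for factors known from the control of glycolysis, the response to polycyclic aromatic hydrocarbons and the oxidative stress response. The windows are the 250 bases before a transcription start, from RefSeq on GRCm38.p6, and 44 of the 45 genes had at least 1 window. The letters searched on both strands were ACGTG, the core of hypoxia-inducible factor sites, TNGCGTG, that of aryl hydrocarbon receptor sites, and TGACNNNGC, that of NRF2 sites. ACGTG is also contained in the E-box CACGTG, which reads the same on both strands. Capitals mark matches on either strand, and each sequence runs 5′ to 3′ on the strand of its gene. Ldha and Pgd have 2 windows each, of which the first is shown. By GENCODE M21 the Ldha and G6pdx windows lie inside the annotated gene, whose outermost transcripts start further upstream.
Slc2a1 (chr4:119108495-119108744, plus strand): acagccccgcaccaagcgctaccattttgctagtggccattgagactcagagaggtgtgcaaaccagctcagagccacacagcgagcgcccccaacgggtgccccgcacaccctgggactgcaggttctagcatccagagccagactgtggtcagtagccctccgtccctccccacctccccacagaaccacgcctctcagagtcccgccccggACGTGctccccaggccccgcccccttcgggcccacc
Hk2 (chr6:82774455-82774704, minus strand): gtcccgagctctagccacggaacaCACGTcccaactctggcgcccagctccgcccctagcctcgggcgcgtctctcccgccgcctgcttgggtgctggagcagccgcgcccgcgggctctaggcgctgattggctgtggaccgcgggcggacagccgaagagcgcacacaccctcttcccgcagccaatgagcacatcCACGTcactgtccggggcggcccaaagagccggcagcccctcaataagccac
Ldha (chr7:46845554-46845803, plus strand): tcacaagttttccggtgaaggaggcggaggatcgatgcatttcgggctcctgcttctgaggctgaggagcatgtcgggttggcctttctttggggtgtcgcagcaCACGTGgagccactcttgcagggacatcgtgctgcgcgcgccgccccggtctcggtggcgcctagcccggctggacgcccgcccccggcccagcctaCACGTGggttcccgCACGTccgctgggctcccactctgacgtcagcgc
G6pdx (chrX:74428881-74429130, minus strand): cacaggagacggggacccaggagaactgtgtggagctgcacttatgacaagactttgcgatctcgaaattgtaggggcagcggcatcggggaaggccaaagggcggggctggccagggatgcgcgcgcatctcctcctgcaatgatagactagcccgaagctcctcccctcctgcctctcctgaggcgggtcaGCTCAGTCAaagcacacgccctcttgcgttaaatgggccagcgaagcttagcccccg
Pgd (chr4:149166706-149166955, minus strand): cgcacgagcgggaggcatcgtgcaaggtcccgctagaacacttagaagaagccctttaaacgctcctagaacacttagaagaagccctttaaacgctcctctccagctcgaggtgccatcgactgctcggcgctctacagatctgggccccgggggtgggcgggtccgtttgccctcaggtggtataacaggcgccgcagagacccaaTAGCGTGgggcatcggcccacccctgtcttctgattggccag

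ACGTG was present upstream of 17 of the 44 genes (38.6%), against 18.5% of the 27025 genes with a window. Hk2 and Slc2a1 carried it, and the Ldha window held it in 3 separate runs, of which 2 were the palindrome CACGTG. None of the 4 pentose phosphate genes carried this core. TNGCGTG was found for 5 genes (11.4%, against 4.76% of all genes), Pfkl and Pgd among them. TGACNNNGC was found for 7 genes (15.9%, against 11.5% of all genes), among them G6pdx. Pdk1, Pdk4, Aldoc, Tkt and Taldo1 had none of these letters in their windows. All genes with a window include genes whose expression was too low to be tested, and the number of windows differs between genes. By window, ACGTG was in 38.5% of those of the members, against 16.6% of all windows. TNGCGTG was in 7.69%, against 4.1%, and TGACNNNGC in 10.8%, against 10.2%. These counts describe sequence only, since the shares were not compared by a test and binding was not measured.

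Glucose enters the cell through Slc2a1 (GLUT1), the basal glucose transporter. Slc2a1 stood at 41.2, 69.4 and 40.2 FPKM in untreated replicates 1, 2 and 3 and at 31.9, 30.7 and 30.7 FPKM in PM2.5 replicates 1, 2 and 3. Every PM2.5 library was below every untreated library, and the PM2.5 libraries were nearly equal. The means were 50.3 ± 16.6 FPKM (SD, n = 3) untreated and 31.1 ± 0.69 FPKM (SD, n = 3) after PM2.5. The log2 difference was -0.63 (SE 0.27, limma adjusted p = 0.875), and without untreated replicate 2 it was -0.38 (SE 0.083, adjusted p = 0.137).

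Hexokinase traps glucose as glucose 6-phosphate, and Hk2 encodes the inducible isozyme bound to mitochondria. Hk2 was measured at 7.34, 3.69 and 6.19 FPKM untreated and at 12.6, 11.7 and 11.1 FPKM after PM2.5. All 3 PM2.5 libraries were higher than all untreated libraries, with untreated replicate 2 as the lowest. The means were 5.74 ± 1.86 FPKM (SD, n = 3) and 11.8 ± 0.774 FPKM (SD, n = 3). The log2 difference of 0.96 (SE 0.26) had an unadjusted p of 0.00948 and an adjusted p of 0.771 in limma. Without untreated replicate 2 the difference was 0.72 (SE 0.11, limma adjusted p = 0.0779). Without PM2.5 replicate 3 in addition it was 0.77 (limma adjusted p = 0.00208), in a comparison that called 47.1% of all genes.

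Hk1, the constitutive hexokinase, ranged from 9.76 to 14.6 FPKM in the untreated libraries. Its PM2.5 values were 18.7 and 18.8 FPKM in replicates 1 and 2 but 11.6 FPKM in replicate 3, within the untreated range. Gpi1, which isomerises glucose 6-phosphate, likewise had 37.4 and 37.3 FPKM in PM2.5 replicates 1 and 2 and 29.2 FPKM in replicate 3, beside 31.7, 48.7 and 32.3 FPKM in untreated replicates 1, 2 and 3. Untreated replicate 2 was thus above every PM2.5 library, and the log2 difference of Gpi1 was -0.09 (SE 0.25) with 6 libraries and 0.10 (SE 0.14) without it.

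Phosphofructokinase commits the sugar to glycolysis, and Pfkl encodes its liver type. Pfkl was at 55.6, 34.4 and 54.9 FPKM untreated and at 42.9, 41.4 and 35.1 FPKM after PM2.5. The PM2.5 libraries were below untreated replicates 1 and 3 and above untreated replicate 2, so that the groups overlapped. Its log2 difference was -0.25 (SE 0.26) with 6 libraries and -0.47 (SE 0.12, limma adjusted p = 0.173) without untreated replicate 2. Pfkm and Pfkp, the muscle and platelet types, had differences of -0.03 and 0.38 with 6 libraries and of -0.17 and -0.03 without that library. Pfkfb3, which makes the activator fructose 2,6-bisphosphate, was at 2.17 to 3.14 FPKM untreated and at 3.27 to 3.75 FPKM after PM2.5, with a difference of 0.28 (SE 0.19), or 0.15 (SE 0.098) without that library.

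Aldolase splits the sugar, and Aldoa had the highest mean FPKM of the preparatory phase (360.3, beside 350.1 for Tpi1). That order rests on untreated replicate 2, since Tpi1 was higher than Aldoa in the other 5 libraries. Aldoa stood at 236, 992 and 240 FPKM untreated and at 253, 252 and 189 FPKM after PM2.5. Untreated replicate 2 was 4.16 times the mean of untreated replicates 1 and 3, which lay within the range of the PM2.5 libraries. On the log2 scale the difference was -0.74 (SE 0.61) with 6 libraries and -0.06 (SE 0.16) without untreated replicate 2.

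Aldoc, the brain type of aldolase, was a low gene at 3.27, 4.23 and 3.31 FPKM untreated and 2.62, 2.30 and 1.82 FPKM after PM2.5. The groups did not overlap. Its log2 difference of -0.51 (SE 0.19) had an unadjusted p of 0.0353 and an adjusted p of 0.875 in limma, and without untreated replicate 2 the difference was -0.41 (SE 0.14, adjusted p = 0.26). Tpi1, which interconverts the triose phosphates, was at 430, 116 and 424 FPKM untreated and at 380, 401 and 349 FPKM after PM2.5.

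Of the 6 steps, the listed payoff genes were those where untreated replicate 2 departed most from untreated replicates 1 and 3. Its median departure there was -2.40 on the log2 scale. Pgk1, whose enzyme makes the first ATP of glycolysis, was at 454, 50.02 and 449 FPKM untreated and at 391, 396 and 390 FPKM after PM2.5. Pgam1, the phosphoglycerate mutase, was at 453, 53.5 and 476 FPKM untreated and at 444, 463 and 364 FPKM after PM2.5. Eno1, an enolase, was at 259, 80.4 and 270 FPKM untreated and at 261, 262 and 210 FPKM after PM2.5. In each of these genes untreated replicate 2 was the lowest of the 6 libraries, at 0.111, 0.115 and 0.304 times the mean of untreated replicates 1 and 3. Related genes outside the list did not share this direction. Untreated replicate 2 was at 165 times that mean for Gapdh, 2.98 times for Eno2 and 2.29 times for Eno3, whereas Pgam2 was at 0 FPKM.

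Pkm, which encodes pyruvate kinase, had the highest mean FPKM of the payoff phase. Its values were 406, 324 and 400 FPKM untreated and 534, 540 and 375 FPKM after PM2.5. PM2.5 replicates 1 and 2 were above every untreated library, and replicate 3 was within the untreated range. The log2 difference was 0.34 (SE 0.29) with 6 libraries and 0.24 (SE 0.19) without untreated replicate 2. It was 0.41 (limma adjusted p = 0.00213) without PM2.5 replicate 3 as well, where 47.1% of all genes were called. Sequence is shared with other annotated genes by 54.7% of the 31-base stretches of Pgk1, 37.1% of those of Pgam1, 28.5% of those of Eno1 and 34.7% of those of Pkm, so their counts are uncertain.

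**Figure D3:**
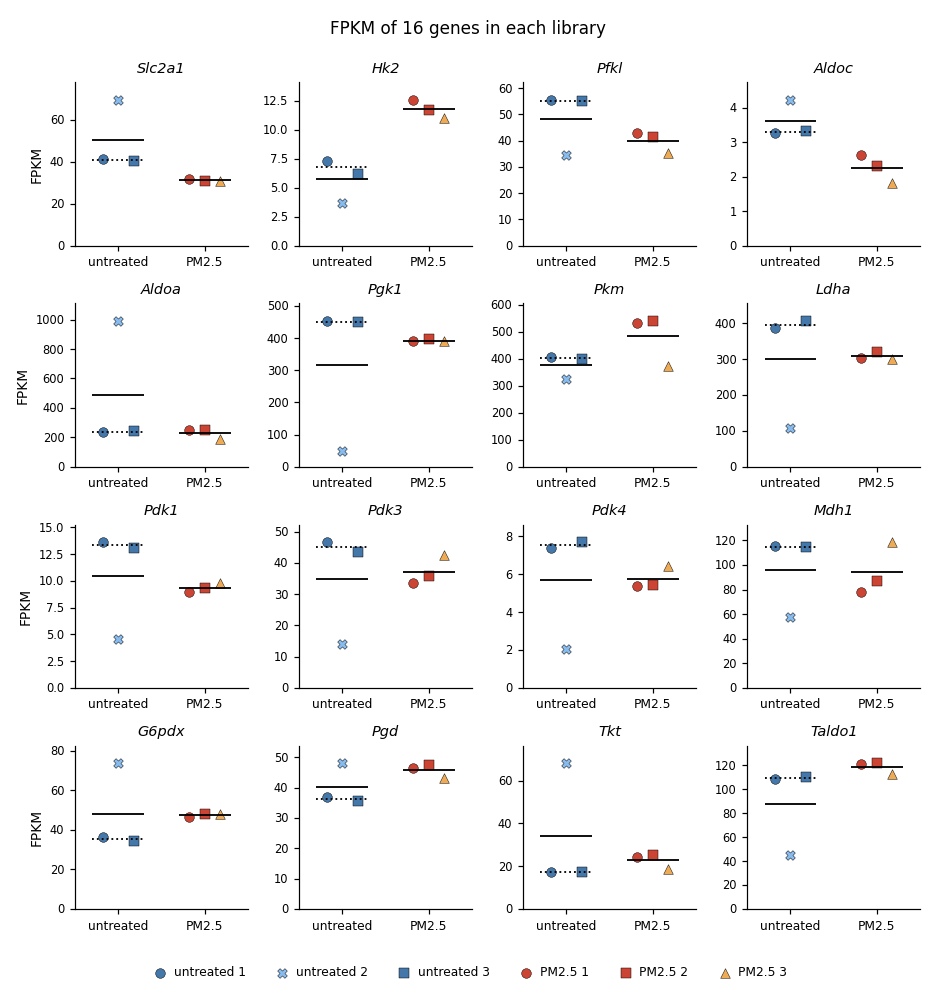
FPKM of named genes in the 3 untreated and 3 PM2.5 libraries, each point a library, on axes that start at 0. Solid bars are group means and dotted bars the mean of untreated replicates 1 and 3, and Hk2 (11.1 to 12.6 FPKM after PM2.5) and Slc2a1 (30.7 to 31.9 FPKM) show groups that do not overlap, whereas for G6pdx and Tkt untreated replicate 2 is above all other libraries.

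Lactate dehydrogenase A reduces pyruvate to lactate and keeps glycolysis supplied with NAD+. Ldha was at 386, 107 and 407 FPKM untreated and at 302, 321 and 299 FPKM after PM2.5. The PM2.5 libraries were below untreated replicates 1 and 3 but above untreated replicate 2. Its log2 difference was 0.26 (SE 0.56) with 6 libraries and -0.37 (SE 0.094, limma adjusted p = 0.179) without untreated replicate 2, so its sign turned on that library. Ldhb, the heart type, was at 1.72 to 3.31 FPKM over all libraries, and 33.0% of its 31-base stretches occur in other genes, as do 19.6% of those of Ldha.

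The monocarboxylate transporters that carry lactate showed the split within the PM2.5 group. Slc16a3 (MCT4), the exporter of glycolytic cells, was at 47.7, 38.6 and 51.2 FPKM untreated and at 62.2, 64.5 and 26.6 FPKM after PM2.5. Its highest values were PM2.5 replicates 1 and 2 and its lowest was PM2.5 replicate 3. Slc16a1 (MCT1) was at 28.3, 11.4 and 26.5 FPKM untreated and at 26.7, 28.1 and 37.4 FPKM after PM2.5, with replicate 3 as the highest.

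Pyruvate dehydrogenase kinases switch the complex off by phosphorylation, and without untreated replicate 2 all 4 had log2 differences below 0, whereas with 6 libraries those of Pdk3 and Pdk4 were above 0. Pdk1 was at 13.6, 4.55 and 13.1 FPKM untreated and at 8.94, 9.30 and 9.84 FPKM after PM2.5. All PM2.5 libraries were below untreated replicates 1 and 3 and above untreated replicate 2. On the log2 scale the difference was -0.01 (SE 0.41) with 6 libraries and -0.47 (SE 0.09, unadjusted p = 0.00313, limma adjusted p = 0.111) without untreated replicate 2.

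Pdk4, a kinase induced by fasting, followed the same order at 7.38, 2.06 and 7.71 FPKM untreated and 5.37, 5.41 and 6.45 FPKM after PM2.5. Its log2 difference was 0.15 (SE 0.43) with 6 libraries and -0.35 (SE 0.11, limma adjusted p = 0.25) without untreated replicate 2. Pdk3 and Pdha1 had almost the same mean over 6 libraries, the highest of this step. Pdk3 was at 46.7, 14.0 and 43.6 FPKM untreated and at 33.5, 35.7 and 42.5 FPKM after PM2.5, with a difference of 0.26 (SE 0.48) with 6 libraries and -0.28 (SE 0.13) without that library. Pdk2 was low, at 3.66, 6.78 and 3.03 FPKM untreated and 3.45, 2.87 and 2.15 FPKM after PM2.5, with a difference of -0.48 (SE 0.30) and then -0.20 (SE 0.18).

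Among the subunits of the complex itself no common direction was seen. Pdha1, the catalytic alpha subunit, was at 37.2, 11.6 and 38.0 FPKM untreated and at 42.8, 41.9 and 44.6 FPKM after PM2.5, without overlap. Its partner Pdhb was at 31.3, 23.1 and 32.7 FPKM untreated and at 20.1, 20.5 and 32.7 FPKM after PM2.5, so that PM2.5 replicate 3 was level with the highest untreated library. Dlat, the acetyltransferase core, was at 13.5 to 18.8 FPKM untreated and 19.5 to 20.5 FPKM after PM2.5. Dld, the dehydrogenase that the complex shares with the citrate cycle, was at 31.8, 9.36 and 30.99 FPKM untreated and at 25.1, 25.6 and 38.5 FPKM after PM2.5, with a log2 difference of 0.44 (SE 0.50) with 6 libraries and -0.10 (SE 0.21) without untreated replicate 2.

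None of the 14 citrate cycle genes had an unadjusted p under 0.05 in either comparison. Of all genes, 3.8% did with 6 libraries and 15.9% without untreated replicate 2. Cs, the citrate synthase that opens the cycle, was at 54.0 to 61.4 FPKM untreated and 65.1 to 66.5 FPKM after PM2.5. Ogdh and Dlst, subunits of the oxoglutarate dehydrogenase complex, were at 47.8 to 50.7 FPKM and 8.62 to 9.87 FPKM untreated and at 50.9 to 53.1 FPKM and 9.92 to 10.6 FPKM after PM2.5. Mdh2, the mitochondrial malate dehydrogenase, was at 47.8 to 92.4 FPKM untreated and 97.2 to 102 FPKM after PM2.5. These 4 of the 14 genes did not overlap between the groups with 6 libraries, against 8.35% of all genes with PM2.5 higher. Their log2 differences were 0.17, 0.09, 0.12 and 0.45 with 6 libraries and 0.11, 0.11, 0.17 and 0.15 without untreated replicate 2.

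Mdh1, the cytosolic malate dehydrogenase of the malate-aspartate shuttle, was the most abundant gene of this step. It was at 115, 57.4 and 114 FPKM untreated and at 78.2, 86.6 and 119 FPKM after PM2.5. PM2.5 replicate 3 was the highest library and PM2.5 replicates 1 and 2 lay between the untreated values. The log2 difference was 0.03 (SE 0.36) with 6 libraries and -0.30 (SE 0.20) without untreated replicate 2. It was -0.48 (limma adjusted p = 0.00278) without PM2.5 replicate 3 as well, where 47.1% of all genes were called. The isocitrate dehydrogenases Idh1 and Idh2 had differences of 0.14 and 0.16 with 6 libraries and of -0.23 and -0.10 without untreated replicate 2. For the 3 subunits of the NAD-linked enzyme, Idh3a, Idh3b and Idh3g, the differences were -0.26, 0.04 and -0.19 and then -0.04, -0.06 and -0.12. The succinyl-CoA ligase subunits Sucla2, Suclg1 and Suclg2 stood at 0.28, 0.55 and 0.17 with 6 libraries and at -0.14, 0.04 and 0.26 without that library, and fumarase, Fh1, at -0.08 and then 0.08. The sign thus turned on that library for Mdh1, Idh1, Idh2, Idh3b, Sucla2 and Fh1.

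The 4 listed pentose phosphate genes all pointed the same way once untreated replicate 2 was set aside, but the other genes of the pathway did not. Of 5 such genes 4 were tested. Without that library the log2 differences were 0.40 for Pgls, 0.15 for H6pd, -0.08 for Rpia and -0.06 for Rpe. None of the 4 was free of overlap between the groups, against 37.3% of all genes that were. G6pdx encodes glucose 6-phosphate dehydrogenase, the rate-limiting source of NADPH in the pathway. It was at 36.4, 73.6 and 34.1 FPKM untreated and at 46.5, 47.9 and 48.1 FPKM after PM2.5. The PM2.5 libraries were nearly equal and above untreated replicates 1 and 3, and untreated replicate 2 was above them all. Its log2 difference was 0.07 (SE 0.33) with 6 libraries and 0.42 (SE 0.086, unadjusted p = 0.00435, limma adjusted p = 0.123) without untreated replicate 2. Its annotated span overlaps that of Ikbkg on the opposite strand, and 23.6% of its 31-base stretches occur in other genes.

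Pgd, the next dehydrogenase and NADPH source, was at 37.0, 48.1 and 35.6 FPKM untreated and at 46.6, 47.6 and 43.2 FPKM after PM2.5. Here too untreated replicate 2 was the highest library and the PM2.5 libraries were above untreated replicates 1 and 3. On the log2 scale the difference was 0.19 (SE 0.21) with 6 libraries and 0.33 (SE 0.092, unadjusted p = 0.0159, limma adjusted p = 0.209) without untreated replicate 2.

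Transketolase and transaldolase run the reversible arm that returns pentoses to glycolysis. Tkt was at 17.3, 68.2 and 17.4 FPKM untreated and at 24.4, 25.2 and 18.8 FPKM after PM2.5, and its log2 difference was -0.28 (SE 0.55) with 6 libraries and 0.36 (SE 0.15) without untreated replicate 2. Taldo1, the most abundant gene of the pathway, was at 109, 44.8 and 110 FPKM untreated and at 121, 122 and 113 FPKM after PM2.5, and its difference was 0.54 (SE 0.39) and then 0.11 (SE 0.091). Untreated replicate 2 was the highest library for Tkt and the lowest for Taldo1. With PM2.5 replicate 3 also left out, limma called all 4 of these genes higher, against 23.5% of all genes called higher in that comparison. The lowest of their adjusted p-values in limma was 0.0013. That comparison keeps the most alike libraries of each group, so its p-values are not support for a difference.

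The balance between isozymes is a ratio within a library and so does not depend on scaling between libraries. With 6 libraries, 3 of the 13 shares computed did not overlap between the groups. The exact permutation test cannot go below p = 0.1 with 3 libraries against 3. A share with no difference reaches that p with a probability of 0.1. Shares of other gene families were not computed for comparison. Hk2 took 33.4%, 27.5% and 30.8% of the summed FPKM of Hk1 and Hk2 untreated and 40.2%, 38.4% and 48.8% after PM2.5. Its share was 11.9 percentage points higher after PM2.5 (exact permutation p = 0.1, adjusted over the 13 shares 0.433), and 10.4 points higher without untreated replicate 2. The highest share was in PM2.5 replicate 3, where Hk1 was low.

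Among the phosphofructokinases the share of Pfkl was 63.0% to 65.7% untreated and 57.7% to 61.0% after PM2.5, a difference of -4.78 points (exact permutation p = 0.1, adjusted 0.433). Pfkp took 3.12% to 6.54% untreated and 7.60% to 8.13% after PM2.5, a difference of 2.60 points (exact permutation p = 0.1, adjusted 0.433). Pfkl and Pfkp are parts of the same sum, so their shares are not separate results. With 6 libraries the other 10 shares overlapped. Without untreated replicate 2, those of Pfkm, Aldoa, Sucla2 and Pdk1 did not overlap either. Ldha made up 98.4% to 99.4% of the lactate dehydrogenase genes and Aldoa 98.6% to 99.6% of the aldolases in every library. Slc16a1 made up 30.1% and 30.3% of the lactate transporters in PM2.5 replicates 1 and 2 but 58.5% in replicate 3, beside 22.7% to 37.3% untreated.

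**Figure D4:**
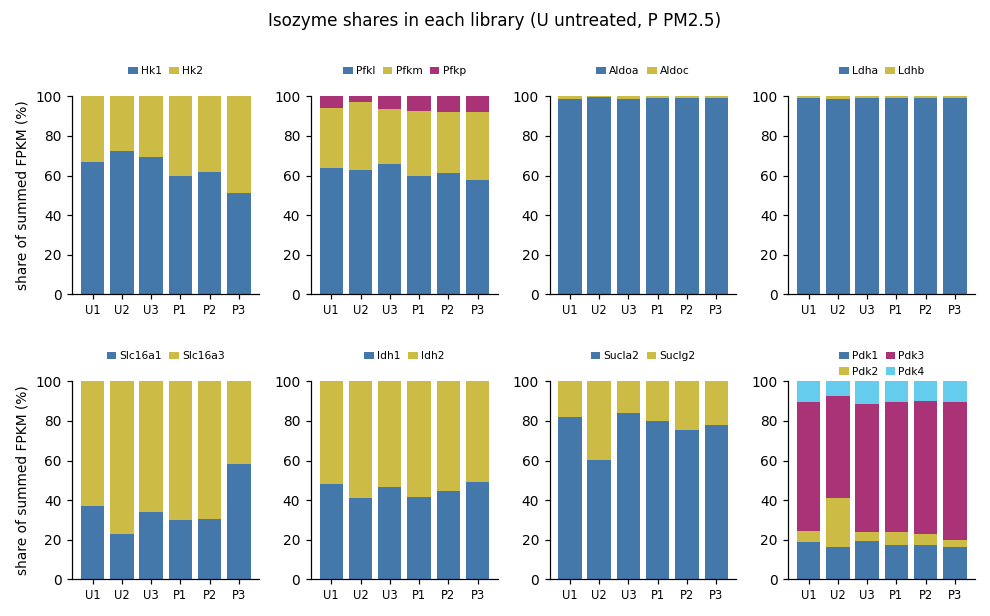
Share of the summed FPKM of each isozyme family taken by each gene in the 6 libraries (U1 to U3 untreated, P1 to P3 PM2.5), in percent. Hk2 takes 27.5% to 33.4% of its family in the untreated bars and 38.4% to 48.8% in the PM2.5 bars, and Slc16a1 stands out at 58.5% in PM2.5 replicate 3.

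Other genes of the same pathways gave no calls either. Of 43 listed, 30 were tested, and limma called 0 of them with or without untreated replicate 2. Unadjusted, 0 of 30 passed with 6 libraries, against 3.8% of all genes, and 2 of 30 (6.67%) passed without untreated replicate 2, against 15.9% of all genes. Tigar, which diverts sugar to the pentose phosphate pathway, was at 6.19, 3.48 and 6.82 FPKM untreated and at 7.97, 7.72 and 8.501 FPKM after PM2.5, with a log2 difference of 0.52 (SE 0.26, limma adjusted p = 0.875) with 6 libraries and 0.27 (SE 0.096, adjusted p = 0.278) without untreated replicate 2. Acly, which cleaves citrate for lipid synthesis, was at 79.4, 10.2 and 76.0 FPKM untreated and at 65.2, 63.3 and 62.1 FPKM after PM2.5, with a difference of 0.65 (SE 0.78, limma adjusted p = 0.875) with 6 libraries and -0.29 (SE 0.086, adjusted p = 0.226) without untreated replicate 2. The sign of the Acly difference thus turned on that library. Gapdh, often used as a reference gene, was at 764 FPKM in untreated replicate 2 and at 4.32 to 8.18 FPKM in the other libraries, and 28.1% of its 31-base stretches occur in other genes.

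Slc2a1, Pdk1, Ldha, Hk2, Pfkfb3, Pkm and Slc16a3 are among the textbook targets of the hypoxia-inducible factor. Without untreated replicate 2 the log2 difference was below 0 for Slc2a1 (-0.38), Pdk1 (-0.47), Ldha (-0.37) and Slc16a3 (-0.05). It was above 0 for Hk2 (0.72), Pfkfb3 (0.15) and Pkm (0.24). These genes are a selection, so their balance of signs does not describe glycolysis. Of the other listed genes of the preparatory phase, Pfkl (-0.47), Aldoc (-0.41), Tpi1 (-0.18), Pfkm (-0.17), Aldoa (-0.06) and Pfkp (-0.03) were below 0. Hk1 (0.16) and Gpi1 (0.10) were above 0. Of the other payoff genes, Pgk1 (-0.20), Pgam1 (-0.14) and Eno1 (-0.12) were below 0. In addition, 13 other targets of that factor outside glycolysis were read from the same fits. With 6 libraries limma called 0 of 13, while 2 (15.4%) passed unadjusted (Car9 and Ankrd37, both lower), against 3.8% of all genes. Without untreated replicate 2, limma called 1 of 13 (7.69%), against 0.993% of all genes and 0.707% called lower, and 7 (53.8%) passed unadjusted, against 15.9% of all genes. Of these 6 were lower, against 7.63% of all genes, and 1 was higher, against 8.23%. The list was chosen with earlier results of these data known, so these shares are not independent support. The called gene was Car9, which encodes the surface carbonic anhydrase IX. Car9 was at 17.7, 9.001 and 17.8 FPKM untreated and at 5.73, 5.58 and 5.36 FPKM after PM2.5, and all PM2.5 libraries were below all untreated libraries. It fell by 1.52 on the log2 scale (SE 0.085, adjusted p = 0.00788), and with 6 libraries its difference was -1.21 (SE 0.29, adjusted p = 0.629). Over the other settings without untreated replicate 2 its adjusted p lay between 0.000185 and 0.236, and the call was lost when any library other than PM2.5 replicate 3 was left out as well.

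The mitophagy receptor Bnip3 was at 94.5, 26.3 and 95.7 FPKM untreated and at 40.9, 45.7 and 67.97 FPKM after PM2.5, with a log2 difference of -0.30 (SE 0.55) with 6 libraries and -0.91 (SE 0.23, limma adjusted p = 0.179) without untreated replicate 2. Bnip3l, its relative, was at 35.5, 19.5 and 33.2 FPKM untreated and at 17.3, 19.8 and 24.3 FPKM after PM2.5, with a difference of -0.47 (SE 0.29) and then -0.73 (SE 0.16, limma adjusted p = 0.136). For both genes the PM2.5 libraries were below untreated replicates 1 and 3 but not all below untreated replicate 2, and 57.0% and 23.7% of their 31-base stretches occur in other genes.

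P4ha1 and P4ha2 encode collagen prolyl hydroxylases. P4ha1 was at 90.2, 57.2 and 86.9 FPKM untreated and at 55.2, 55.2 and 69.8 FPKM after PM2.5, with a log2 difference of -0.35 (SE 0.26) with 6 libraries and -0.56 (SE 0.14, limma adjusted p = 0.167) without untreated replicate 2. P4ha2 was at 23.9, 20.1 and 23.6 FPKM untreated and at 18.7, 17.8 and 17.8 FPKM after PM2.5, with a difference of -0.30 (SE 0.18) and then -0.38 (SE 0.083, limma adjusted p = 0.138). The groups did not overlap for P4ha2, and for P4ha1 PM2.5 replicate 3 was above untreated replicate 2.

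Ankrd37, which overlaps Ufsp2 and Lrp2bp on the opposite strand, was at 1.89, 4.76 and 2.70 FPKM untreated and at 0.655, 1.32 and 1.33 FPKM after PM2.5. All PM2.5 libraries were below all untreated libraries, and its log2 difference was -0.93 (SE 0.31, limma adjusted p = 0.875) with 6 libraries and -0.66 (SE 0.21, adjusted p = 0.257) without untreated replicate 2. Ndrg1 went the other way, at 5.95, 6.19 and 5.57 FPKM untreated and 7.65, 7.14 and 8.46 FPKM after PM2.5, without overlap, and its difference was 0.34 (SE 0.17) and then 0.37 (SE 0.11, limma adjusted p = 0.212). Vegfa, the angiogenic growth factor, was at 13.8, 12.0 and 13.1 FPKM untreated and at 16.6, 15.2 and 13.8 FPKM after PM2.5, so that the groups met at 13.8 FPKM, and its difference was 0.21 (SE 0.18) and then 0.16 (SE 0.11).

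**Figure D5:**
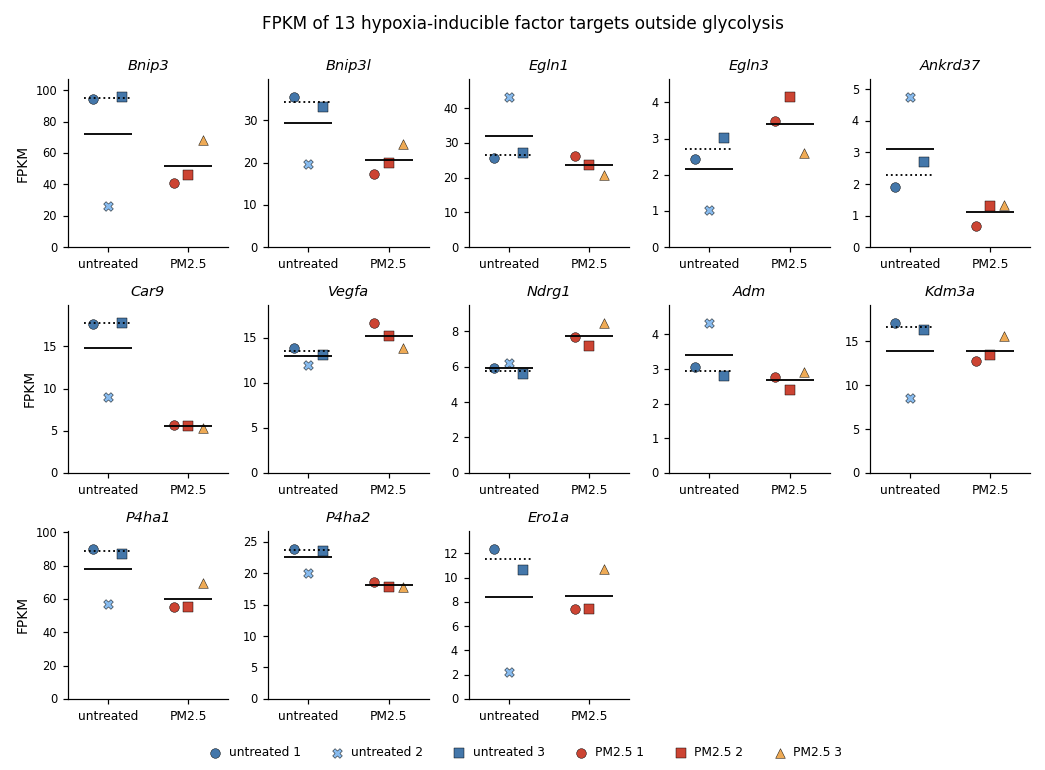
FPKM of 13 targets of the hypoxia-inducible factor outside glycolysis in the 6 libraries, with solid bars for group means and dotted bars for the mean of untreated replicates 1 and 3. Car9 lies at 5.36 to 5.73 FPKM in the PM2.5 libraries, below all untreated libraries, whereas Ndrg1 lies above them.

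Mitochondrial transcripts moved with untreated replicate 2 as well. The 13 mitochondrially encoded protein genes summed to 144405 FPKM in that library and to 11904 to 14156 FPKM in the other 5. Their median log2 difference was -1.18 with 6 libraries and 0.00768 without untreated replicate 2. The part of this library's mitochondrial share in the differences of the pathway genes was not tested.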

How the data were processed

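The authors prepared libraries from total RNA with the NEBNext Ultra kit, sequenced read pairs on an Illumina Novaseq, mapped them with HISAT2 2.0.5 and counted them per gene with featureCounts 1.5.0-p3, versions as in the submitters' processing notes and the methods. The deposited values are FPKM per gene and library, computed by the authors from gene length. The study's own differential test was a count model, which needs reads rather than FPKM. It was not run here on the recovered reads, which were fitted with voom as an alternative. The notes name mm9, whereas identifiers and gene lengths were taken here from GENCODE M21 on GRCm38. A setting for strand in counting is not given in the sources used here, so reads of overlapping opposite genes cannot be told apart.

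With those lengths, 98.1% to 98.4% of values under 50 reads gave whole reads (tolerance 0.05). The deposited FPKM denominators followed median-of-ratios size factors rather than totals. Genes with a mean of at least 1 FPKM over 6 libraries were tested with limma 3.58.1 (R 4.3.3, statmod 1.5.0, trend and robust) on log2(FPKM + 1), with Benjamini-Hochberg adjustment over all 11884 genes and calls at an adjusted p under 0.05. A fold change on this scale understates low genes. Isozyme shares were compared with two-sided exact permutation tests. Shared sequence is the share of a gene's 31-base stretches found in GENCODE transcripts of other genes. Values of every library are printed for pathway genes and hypoxia-inducible factor targets with an unadjusted p under 0.05 in either fit. They are also printed for the gene with the highest mean FPKM in each step. Those of Tpi1, Pgk1, Pgam1, Eno1, Hk1, Gpi1, Tkt, Slc16a1, Slc16a3, Pdha1, Pdhb, Dld, Pdk2, Gapdh and Vegfa were added after being seen. The genes and lists were chosen with earlier results of these data known. Alternatives were other filters, pseudocounts and scalings, voom on recovered reads, a replicate block and leaving out each library.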

Additional observations from a re-analysis of the deposited data

How the results depend on the processing

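The count of 0 called among the 45 genes held with 6 libraries under every filter, pseudocount, scaling, tool and left-out library tried. Of all genes tested 11 were called, and this became 0 without a filter, 1 with at least 10 reads in every library, 6 with scaling to total reads, 0 with voom and 0 to 118 when a library was left out. Scaling to total reads moved the median of all genes from 0.02 to 0.13. The median difference of the 45 genes was -0.057 to 0.23 over left-out libraries, with the lowest value without untreated replicate 2. Without that library 118 genes were called, 41 with no filter and 0 to 5602 when a further library was left out. Then 0 to 25 of the 45 genes were called, the 25 without PM2.5 replicate 3, and their median was -0.079 to -0.031. The cause of these shifts was not tested. Over left-out libraries the log2 difference changed sign for Pdk1 (-0.47 to 0.23), Mdh1 (-0.30 to 0.19), G6pdx (-0.12 to 0.42), Ldha (-0.37 to 0.59), Pdk3 (-0.28 to 0.56), Pdk4 (-0.35 to 0.41), Acly (-0.29 to 1.14) and Bnip3 (-0.91 to 0.00645), and without untreated replicate 2 for Aldoa (-0.13 to 0.082). Pdk1 was also 0.00292 with a pseudocount of 0.1 and 0.097 with total scaling, and Mdh1 was -0.00408 with recomputed median-of-ratios scaling. Isozyme share differences changed sign over left-out libraries for Aldoa (-0.069 to 0.40 points), Ldha (-0.12 to 0.33), Slc16a1 (-1.19 to 13.01), Idh1 (-2.39 to 1.60), Sucla2 (-5.09 to 6.79), Pdk2 (-9.71 to 0.40) and Pdk4 (-0.49 to 1.47). With a replicate block in limma, 0 of all genes were called and 1 of the 45 genes passed unadjusted. Deviations of same-numbered libraries correlated at -0.285, 0.18 and 0.253, and untreated replicates 1 and 3 both correlated best with PM2.5 replicate 3. Such deviations largely follow the outlying untreated replicate 2 and PM2.5 replicate 3, so they cannot settle whether libraries were paired. The labels give only a shared number. The shallowest of the 45 genes was Ldhb, with 35 to 94 reads in a library, while Pdk4 had at least 94 and Aldoc at least 107 in every library. Where leaving out untreated replicate 1 or 3 as well left 1 untreated library, limma took its spread to be that of the PM2.5 group.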
